A study of Mus musculus with 35 samples.

Results

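The genes described here are 8 markers of alternatively activated macrophages, Mrc1, Chil3, Retnla, Clec10a, Mgl2, Clec7a, Il4ra and Il7r. They were chosen by symbol, and each matched exactly 1 of the 47069 gene identifiers in the expression files. The levels come from RNA-seq of bone marrow-derived macrophages (BMDMs), which were grown from the marrow of C57BL/6 mice in medium conditioned by L929 cells. Cells of wild-type (WT) mice and of mice labelled AMPKa1-/-, which were to lack the catalytic a1 subunit of the energy sensor AMPK, were left for 24 h with vehicle (DMSO), with 100 nM of the glucocorticoid dexamethasone (Dex), with 100 ng/ml of bacterial lipopolysaccharide (LPS), with LPS + Dex, with 1 µg/ml of damage-associated molecular patterns (DAMPs), or with DAMPs + Dex. Each of the 12 groups had 3 libraries, other than WT LPS, of which replicates 2 and 3 were used and replicate 1 was not analysed here, so there were 17 WT libraries and 18 labelled AMPKa1-/-. The cultures came from individual mice according to the study's methods, which describe mice of mixed sex but do not describe the AMPKa1-/- allele. The values are FPKM, that is, fragments scaled to the length of the gene and the size of the library, and the libraries held an estimated 15837203 to 31955298 fragments.

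Dex and LPS were visible in marker genes of WT libraries, and the genotype was not visible in Prkaa1. No marker gene was set for DAMPs. Tsc22d3, a glucocorticoid-induced leucine zipper gene, had a mean of 53.5 FPKM with vehicle and 709 with Dex in WT BMDMs, and Il1b, an inflammatory cytokine gene, went from 4.96 to 15292 with LPS. Prkaa1, which encodes the AMPK a1 subunit, lay between 9.05 and 24.0 FPKM in the libraries labelled AMPKa1-/- and between 8.59 and 26.1 in WT libraries. In none of the 6 treatments did limma call Prkaa1 different between the genotypes, the adjusted p values being 0.35 to 1. An FPKM for the whole gene does not check an allele whose deleted part is not given, so these are called libraries labelled AMPKa1-/- throughout. All 8 macrophage markers examined, among them Csf1r, Adgre1 and Cd68, had a mean of at least 1 FPKM, and lysozyme (Lyz2) lay between 10343 and 35906 in every library. Il7r is better known from lymphocytes. Of 8 T cell genes, Cd3d, Cd3e, Cd3g, Cd2, Cd8a and Themis were under 1 FPKM in all 35 libraries, and Cd4, the most abundant, lay between 0.574 and 35.

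Macrophages take up a state called alternative activation when IL-4 or IL-13 binds the IL-4 receptor a chain, the product of Il4ra, and STAT6 enters the nucleus. In mice this state is recognised by endocytic lectins on the surface (Mrc1, the mannose receptor CD206, and the galactose-type lectins Clec10a and Mgl2), by the secreted chitinase-like protein Ym1 (Chil3), and by the resistin-like protein RELMa (Retnla). Clec7a encodes Dectin-1, which binds fungal b-glucans and is also raised by IL-4. Il7r encodes the a chain shared by the receptors for IL-7 and for TSLP. LPS, acting through TLR4, drives the opposing inflammatory state, and glucocorticoids act through a nuclear receptor that both raises and represses genes in macrophages. No IL-4 was added to these cultures, as far as the labels say.

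In these terms the 8 genes did not behave as a set. Retnla and Mgl2 were at or near 0 everywhere. Mrc1, Clec10a, Clec7a and Il7r fell steeply with LPS in both genotypes. On adding Dex to LPS, Clec10a and Il7r rose, Clec7a fell further, and Mrc1 was not called. Chil3 rose with Dex alone and with Dex added to DAMPs, and Il4ra was moderately expressed in every library and had its highest mean with LPS.

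**Figure D1:**
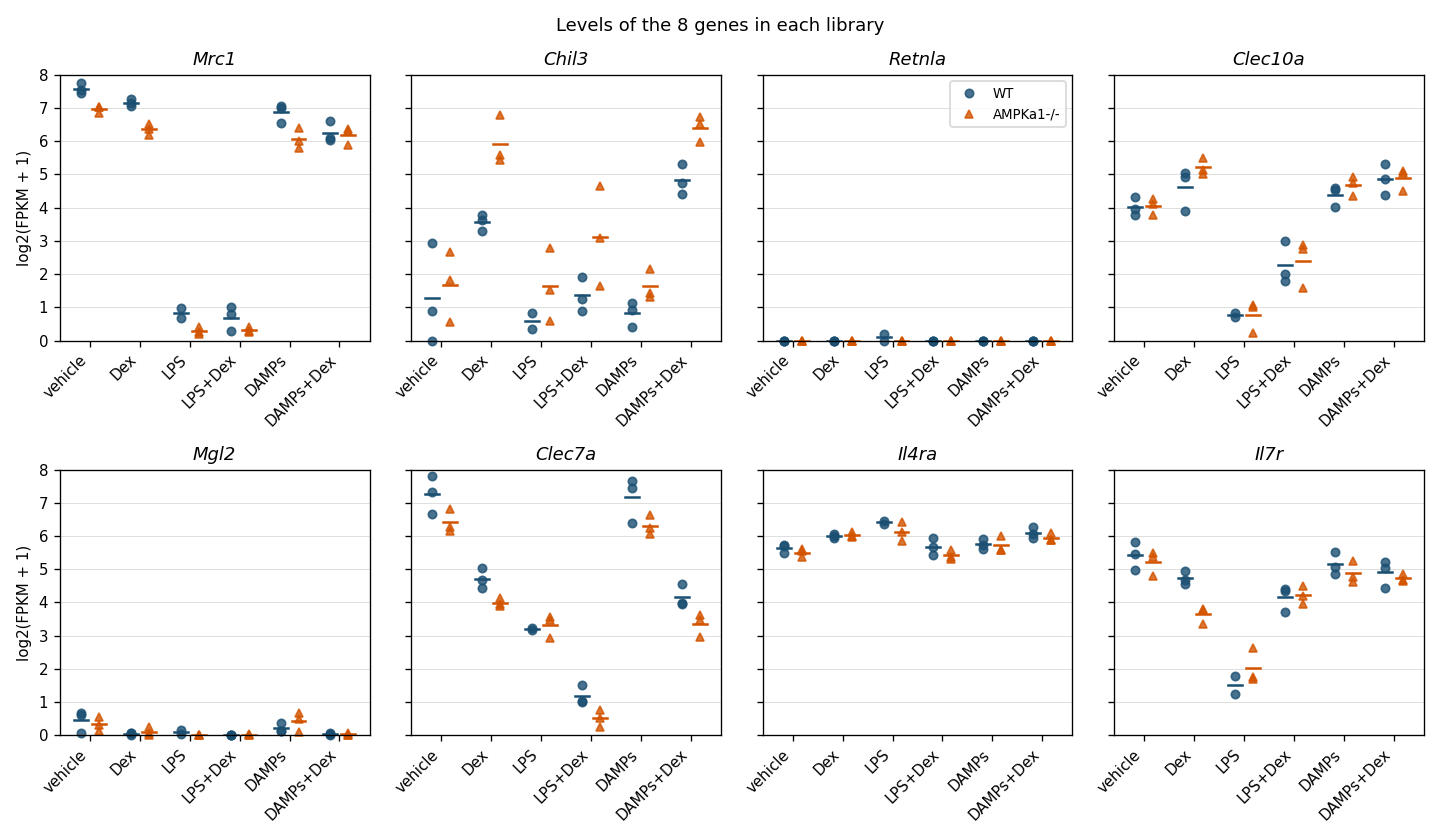
Levels of the 8 genes in each of the 35 libraries, as log2(FPKM + 1) on the vertical axis, by treatment on the horizontal axis. Circles are WT libraries, triangles are libraries labelled AMPKa1-/-, and short lines are means of the plotted log2 values. Mrc1 drops from above 100 FPKM with vehicle to about 1 FPKM or less with LPS and with LPS + Dex, and Retnla stays on the baseline.

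The sequence just upstream of the start is shown for the 3 genes with the largest changes, Mrc1, Chil3 and Clec7a, since members that move in opposite directions invite a look at their promoters. The sequences are from RefSeq (GRCm38.p6), and the copy used here held a window for 7 of the 8 genes, not for Clec10a. Each runs 5′ to 3′ on the gene's strand up to the base before the first annotated start. They cover chr2:14229164-14229391 on the plus strand for Mrc1, chr3:106167565-106167814 on the minus strand for Chil3 and chr6:129472786-129473035 on the minus strand for Clec7a. Capitals mark every match, on either strand, to 5 motifs, namely TTCNNNNGAA (the spacing that STAT6 prefers), TTCNNNGAA (the spacing of most other STATs), AGAACA (a glucocorticoid receptor motif), GGAAGT (a motif of the macrophage factor PU.1) and TGANTCA (AP-1).
Mrc1: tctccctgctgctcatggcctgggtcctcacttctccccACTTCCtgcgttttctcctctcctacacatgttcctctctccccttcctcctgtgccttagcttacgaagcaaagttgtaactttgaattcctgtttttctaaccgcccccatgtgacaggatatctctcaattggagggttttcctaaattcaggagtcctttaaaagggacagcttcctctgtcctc
Chil3: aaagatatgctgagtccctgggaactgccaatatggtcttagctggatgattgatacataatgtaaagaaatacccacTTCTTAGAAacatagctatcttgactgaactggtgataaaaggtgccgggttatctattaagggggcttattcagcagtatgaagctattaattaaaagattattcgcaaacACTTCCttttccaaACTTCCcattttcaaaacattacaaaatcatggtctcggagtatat
Clec7a: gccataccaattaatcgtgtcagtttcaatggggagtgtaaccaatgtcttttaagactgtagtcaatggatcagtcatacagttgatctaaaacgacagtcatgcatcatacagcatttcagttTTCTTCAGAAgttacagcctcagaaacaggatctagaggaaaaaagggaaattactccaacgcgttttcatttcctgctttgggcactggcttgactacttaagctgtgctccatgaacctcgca

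Matches were counted in the 250 bases before the RefSeq start. For Mrc1 the first 228 of these are shown, since GENCODE M21 starts the gene further upstream. Chil3 held 2 matches to GGAAGT, both as the reverse complement, and 1 to TTCNNNGAA. Mrc1 held 1 match to GGAAGT and Clec7a held 1 to TTCNNNNGAA. Among the other members with a window, Retnla, Mgl2 and Il7r each held 1 match to GGAAGT, so that 5 of the 7 held that motif. Retnla also held 1 match to TTCNNNNGAA, Il7r 1 to TTCNNNGAA and Mgl2 1 to AGAACA, and none of the 7 held TGANTCA. Il4ra held no match to any of the 5 motifs. Of 32851 RefSeq windows of the same length, 19.7% held GGAAGT, 16.1% AGAACA, 7.02% TTCNNNGAA, 6.75% TGANTCA and 5.85% TTCNNNNGAA. These matches describe letters in a short window, and factor binding was not measured.

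Retnla and Mgl2 were the members that these macrophages hardly expressed. Retnla (ENSMUSG00000061100, chr16:48842551-48844461, plus strand, 4 exons) was listed at 0 in 34 of 35 libraries. The exception was WT LPS replicate 3, where 0.14 FPKM corresponded to about 2 fragments. In these libraries 3 fragments of Retnla correspond to 0.157 to 0.316 FPKM, the level that a count of 0 still allows. Mgl2 (ENSMUSG00000040950, chr11:70130329-70137550, plus strand, 10 exons) reached at most 0.602 FPKM and was listed at 0 in 13 libraries. Its higher values were with vehicle, where WT libraries had 0.591, 0.0539 and 0.544 FPKM, and with DAMPs, where libraries labelled AMPKa1-/- had 0.602, 0.0702 and 0.410. It was at 0 in all 3 WT LPS + Dex libraries and in all 3 LPS libraries labelled AMPKa1-/-. These values rest on at most 25 fragments in a library. With a mean below 1 FPKM over the 35 libraries, neither gene passed the filter for testing, so 6 of the 8 members were tested.

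Mrc1 (ENSMUSG00000026712, chr2:14229392-14332057, plus strand, 29 exons) encodes the mannose receptor, which takes up mannosylated glycoproteins and microbes. With vehicle, it and Clec7a had the highest FPKM of the 8 genes. In WT libraries it stood at 175, 184 and 215 FPKM with vehicle and at 133, 141 and 154 with Dex. LPS brought it to 0.960 and 0.586 FPKM, and LPS + Dex to 1.00, 0.744 and 0.211. The LPS libraries lay far below every vehicle library, and those with LPS + Dex overlapped them. In libraries labelled AMPKa1-/-, Mrc1 stood at 114, 130 and 128 FPKM with vehicle, at 81.9, 72.2 and 89.9 with Dex, at 0.330, 0.191 and 0.135 with LPS, and at 0.336, 0.205 and 0.233 with LPS + Dex. Its mean level with LPS was thus 0.405% of the vehicle mean in WT and 0.176% in libraries labelled AMPKa1-/-.

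On the log2(FPKM + 1) scale used for the tests, which understates changes of weakly expressed genes, Mrc1 fell by 6.76 ± 0.20 (SE) with LPS in WT (limma adjusted p = 1.4e-20) and by 6.68 ± 0.18 in libraries labelled AMPKa1-/- (adjusted p = 9.4e-22). Markers of other states moved with LPS as well. The sum of the 8 macrophage markers, of which Lyz2 was the most abundant at 10343 to 35906 FPKM, was 21052 to 26887 FPKM with vehicle, 13985 to 17236 with LPS and 27965 to 31885 with LPS + Dex in WT. In libraries labelled AMPKa1-/- it was 21853 to 32521, 12951 to 22888 and 27143 to 39177 FPKM, and vehicle and LPS overlapped. The sum of 7 dendritic cell markers, of which Ccr7 was the most abundant and Flt3, Zbtb46, Clec9a and Cd24a were under 1 FPKM in all libraries, was 40.4 to 113 FPKM with LPS in WT and 50.7 to 91.9 in libraries labelled AMPKa1-/-, and at most 1.77 in the other groups. A sum of 9 neutrophil markers, described with Chil3, was 1.85 to 41.3 FPKM with vehicle and 126 to 161 with LPS over both genotypes. Of 6 fibroblast markers Col1a2 was the most abundant. Their sum was 1.71 to 3.16 FPKM with vehicle and 5.93 to 9.76 with LPS in libraries labelled AMPKa1-/-. In WT it was 1.52 to 18.6 and 12.3 to 14.4, with overlap. The part of all these markers in the changes with LPS of Mrc1 and of the other members was not tested. In a bulk library, fewer cells carrying a transcript and less of it in each cell cannot be told apart. Dex did not bring Mrc1 back. The change on adding Dex to LPS was -0.13 ± 0.20 in WT (adjusted p = 0.68) and 0.05 ± 0.18 in libraries labelled AMPKa1-/- (adjusted p = 0.87). Mrc1 was the only member called with DAMPs. It stood at 133, 127 and 93.5 FPKM in the WT DAMPs libraries and at 54.4, 63.2 and 83.7 in those labelled AMPKa1-/-, all below the vehicle libraries of the same genotype, and fell by 0.71 ± 0.18 (adjusted p = 0.034) and by 0.90 ± 0.18 (adjusted p = 0.0025). The sum of 8 T cell markers, of which Cd4 was the most abundant and 6 were under 1 FPKM in all libraries, was higher in the same comparison without overlap, at 15.9 to 18.3 FPKM with vehicle and 22.9 to 35.4 with DAMPs in WT, and at 7.06 to 11.8 and 16.4 to 20.9 in libraries labelled AMPKa1-/-. Its part in the Mrc1 change was not tested.

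With DAMPs + Dex, Mrc1 stood at 67.7, 64.9 and 97.1 FPKM in WT and at 77.7, 58.2 and 81.6 in libraries labelled AMPKa1-/-. Against DAMPs it fell by 0.62 ± 0.18 in WT (adjusted p = 0.011), with overlapping libraries, and was not called in libraries labelled AMPKa1-/- (0.12 ± 0.18, adjusted p = 0.69). In the same comparison the fibroblast sum was 1.47 to 8.44 FPKM with DAMPs and 9.67 to 18.7 with DAMPs + Dex in WT. In libraries labelled AMPKa1-/- it was 2.36 to 3.49 and 2.24 to 4.60, with overlap. The part of these fibroblast markers in the Mrc1 change was not tested. Dex alone lowered Mrc1 by 0.61 ± 0.18 in libraries labelled AMPKa1-/- (adjusted p = 0.011), and the change in WT, -0.42 ± 0.18, missed the threshold (adjusted p = 0.076) although the 2 groups did not overlap. Of the smaller calls, that with DAMPs in libraries labelled AMPKa1-/- held with any library left out, and the others did not. The WT DAMPs call was lost without any of WT vehicle replicates 1, 2 and 3 or WT DAMPs replicate 3 (adjusted p 0.065 to 0.38), the WT DAMPs + Dex call without WT DAMPs replicate 1 or WT DAMPs + Dex replicate 1 or 2 (0.054 to 0.071), and the Dex call without Dex replicate 2 labelled AMPKa1-/- (0.061), whereas without WT LPS + Dex replicate 3 the WT Dex change was called (0.048). With a pseudocount of 0.1 in place of 1, none of these smaller changes was called (adjusted p 0.098 to 0.38). The WT DAMPs call was also lost without the filter (0.0683), with TPM rescaling (0.0887), without moderation (0.0532) and with only the groups compared (0.259), and the WT DAMPs + Dex call with only the groups compared (0.0695).

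Clec10a (ENSMUSG00000000318, chr11:70156197-70170834, plus strand, 10 exons) encodes a galactose-binding lectin and lies 18646 bases downstream of its close relative Mgl2. Of the 50-base windows in its annotated transcripts, 8.49% also occur in Mgl2 transcripts, and 2.64% of its 100-base windows, so a part of its fragments could have come from either gene, and Mgl2 itself was near 0. WT libraries had 12.7, 19.1 and 14.4 FPKM with vehicle and 13.9, 29.1 and 32.0 with Dex. With LPS they had 0.638 and 0.760 FPKM, and with LPS + Dex 2.97, 7.01 and 2.47. All 3 LPS + Dex libraries lay above the LPS libraries and below the vehicle libraries. Libraries labelled AMPKa1-/- had 18.0, 16.2 and 12.6 FPKM with vehicle, 34.5, 43.6 and 31.3 with Dex, 1.08, 1.00 and 0.171 with LPS, and 5.70, 6.28 and 2.02 with LPS + Dex. There too, each LPS + Dex library lay above each LPS library, and each Dex library above each vehicle library.

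With LPS, Clec10a fell by 3.25 ± 0.38 in WT (adjusted p = 2.5e-08) and fell by 3.28 ± 0.34 in libraries labelled AMPKa1-/- (adjusted p = 2.0e-09). Adding Dex to LPS raised it by 1.5 ± 0.38 (adjusted p = 0.0024) and by 1.64 ± 0.34 (adjusted p = 0.00026). In the same comparison a sum of 9 neutrophil markers, described with Chil3, was 126 to 161 FPKM with LPS and 511 to 1200 with LPS + Dex in WT, and 129 to 143 and 329 to 620 in libraries labelled AMPKa1-/-. The dendritic cell sum given above was at least 40.4 FPKM with LPS and at most 1.77 with LPS + Dex. The part of these markers in the changes of Clec10a and the other members on adding Dex to LPS was not tested. Its mean with LPS + Dex was 26.9% of the vehicle mean in WT and 29.9% in libraries labelled AMPKa1-/-. Dex alone raised it by 1.17 ± 0.34 in libraries labelled AMPKa1-/- (adjusted p = 0.0092) and was not called in WT (0.60 ± 0.34, adjusted p = 0.17), where Dex replicate 1 lay with the vehicle libraries and without it the change was 0.96 (adjusted p = 0.045). With DAMPs it was 15.3, 22.0 and 22.9 FPKM in WT and 29.5, 19.5 and 25.7 in libraries labelled AMPKa1-/-, and with DAMPs + Dex 20.0, 38.5 and 27.9 and 32.2, 33.1 and 21.8. None of these changes was called in either genotype (adjusted p 0.345 to 0.985).

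Clec7a (ENSMUSG00000079293, chr6:129461591-129472779, minus strand, 6 exons, classed as a polymorphic pseudogene by GENCODE M21) fell with each of the agents other than DAMPs. WT libraries had 221, 99.4 and 160 FPKM with vehicle, 32.0, 24.8 and 20.5 with Dex, 8.37 and 7.95 with LPS, and 1.87, 1.03 and 1.00 with LPS + Dex. The 4 groups did not overlap, and the level stepped down from vehicle to Dex, to LPS and to LPS + Dex. Libraries labelled AMPKa1-/- had 70.6, 76.3 and 111 FPKM with vehicle, 16.6, 14.6 and 13.8 with Dex, 10.7, 6.56 and 10.2 with LPS, and 0.709, 0.442 and 0.183 with LPS + Dex, in the same order and again without overlap.

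Dex alone lowered Clec7a by 2.54 ± 0.29 in WT (adjusted p = 1.2e-07) and by 2.42 ± 0.29 in libraries labelled AMPKa1-/- (adjusted p = 2.7e-07). LPS lowered it by 4.06 ± 0.32 (adjusted p = 2.0e-11) and by 3.10 ± 0.29 (adjusted p = 3.5e-10). With Dex added to LPS it fell further, with changes of -2.01 ± 0.32 (adjusted p = 1.3e-05) and -2.80 ± 0.29 (adjusted p = 6.6e-09). Its mean with LPS + Dex was 0.813% of the vehicle mean in WT and 0.517% in libraries labelled AMPKa1-/-. The opposite direction to Clec10a was therefore seen within the same LPS + Dex libraries. DAMPs libraries had 201, 82.2 and 174 FPKM in WT and 66.0, 74.7 and 98.8 in those labelled AMPKa1-/-, overlapping vehicle in both. With DAMPs + Dex the level was 22.3, 15.0 and 14.5 FPKM in WT and 10.1, 11.4 and 6.77 in libraries labelled AMPKa1-/-, a change against DAMPs of -3.0 ± 0.29 (adjusted p = 5.5e-09) and -2.96 ± 0.29 (adjusted p = 7.0e-09). The T cell sum was also lower there without overlap, at 6.60 to 16.4 FPKM with DAMPs + Dex in WT and 5.94 to 7.36 in libraries labelled AMPKa1-/-. So was the sum of 5 eosinophil markers, none with a mean of at least 1 FPKM, Ccr3 the most abundant and Ear6, Epx and Prg2 under 1 FPKM in all libraries, which was 0.996 to 1.41 FPKM with DAMPs and 0.184 to 0.274 with DAMPs + Dex in WT, and 0.942 to 1.51 and 0.348 to 0.458 in libraries labelled AMPKa1-/-. The part of these markers in the changes of Clec7a and of the other members on adding Dex to DAMPs was not tested.

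Chil3 (ENSMUSG00000040809, chr3:106147554-106167564, minus strand, 11 exons) encodes Ym1, a secreted lectin of the chitinase family without chitinase activity, which neutrophils and their marrow precursors also make. Of its 50-base transcript windows, 26.9% occur in transcripts of other genes, 16.9% in Chil4, and of its 100-base windows 4.93% and 3.42%, so a part of its fragments could have come from those genes. WT vehicle libraries had 6.69, 0 and 0.869 FPKM, and WT Dex libraries 12.7, 8.75 and 11.3. Libraries labelled AMPKa1-/- had 5.37, 2.53 and 0.481 FPKM with vehicle and 109, 46.9 and 41.9 with Dex. The Dex libraries of each genotype lay above its vehicle libraries, and those labelled AMPKa1-/- lay above WT. With DAMPs the level was 0.898, 0.319 and 1.18 FPKM in WT and 3.45, 1.46 and 1.71 in libraries labelled AMPKa1-/-, and with DAMPs + Dex 20.2, 25.6 and 39.2 in WT and 90.4, 62.2 and 105 in those labelled AMPKa1-/-.

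Chil3 rose by 2.28 ± 0.65 with Dex in WT (adjusted p = 0.0089) and by 4.24 ± 0.65 in libraries labelled AMPKa1-/- (adjusted p = 1.3e-05). Adding Dex to DAMPs raised it by 4.01 ± 0.65 (adjusted p = 2.5e-05) and by 4.78 ± 0.65 (adjusted p = 1.9e-06), a ratio of mean FPKM of 35.6 and 38.9. In WT the fibroblast sum given with Mrc1 was also higher there without overlap, and its part in the Chil3 change was not tested. The response to Dex under LPS was not tested against that without LPS. LPS libraries had 0.272 and 0.790 FPKM in WT and 5.86, 1.88 and 0.509 in those labelled AMPKa1-/-, and LPS + Dex libraries 2.77, 0.865 and 1.39 and 24.2, 7.48 and 2.12. Neither change was called, at 0.76 ± 0.73 in WT (adjusted p = 0.46) and 1.49 ± 0.65 in libraries labelled AMPKa1-/- (adjusted p = 0.073). The latter change was called with the replicate number as a block (adjusted p = 0.012), where same-numbered libraries deviated together. It was also called without LPS replicate 1 labelled AMPKa1-/- (2.06, adjusted p = 0.023), without LPS + Dex replicate 3 labelled AMPKa1-/- (2.23, adjusted p = 0.0099) or without WT vehicle replicate 1 (1.49, adjusted p = 0.044). With any other library left out this change was not called, and its estimate was as low as 0.73. The WT Dex call rested on WT vehicle replicate 2, at 0, and without that library was 1.64 (adjusted p = 0.091). With other libraries left out the WT Dex estimate was as high as 3.11, and under the alternatives it ran from 2.19 to 3.65.

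Markers of neutrophils were compared with Chil3, and the vehicle libraries had the same order in both. Summed over 9 neutrophil genes, of which S100a8 was the most abundant, the level in WT vehicle replicates 1, 2 and 3 was 32.4, 1.85 and 7.42 FPKM, and in the vehicle replicates labelled AMPKa1-/- 41.3, 24.1 and 8.64. With Dex the sum was 6.39, 2.24 and 6.95 FPKM in WT and 47.9, 32.0 and 23.1 in libraries labelled AMPKa1-/-. In WT the Dex sums lay within the vehicle range, whose upper end of 32.4 FPKM was replicate 1. Between the genotypes, Chil3 and the sum were both higher in the Dex libraries labelled AMPKa1-/-. Of the 9 genes, 5 had a mean of at least 1 FPKM (Ngp, Camp, Ltf, S100a8 and S100a9), and the neutrophil and precursor genes Elane, Mpo, Ly6g and Cxcr2 were under 1 FPKM in all 35 libraries. With DAMPs + Dex, where Chil3 was high in both genotypes, the sum was 4.8 to 9.05 FPKM in WT and 8.65 to 15.7 in libraries labelled AMPKa1-/-, beside 2.36 to 7.23 and 14.9 to 43.3 with DAMPs. With LPS it was 126 to 161 FPKM in WT and 129 to 143 in libraries labelled AMPKa1-/-, at Chil3 levels no higher than 5.86. With LPS + Dex the sum was 511 to 1200 FPKM in WT and 329 to 620 in libraries labelled AMPKa1-/-, at Chil3 levels no higher than 24.2. The part of these markers in the Chil3 results was not tested.

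Il4ra (ENSMUSG00000030748, chr7:125552120-125579474, plus strand, 12 exons) encodes the receptor chain through which IL-4 and IL-13 act, and it varied least of the 6 tested members. Its level was between 38.6 and 86.2 FPKM over the 35 libraries. In WT it was 43.7, 52.1 and 51.2 FPKM with vehicle, 62.4, 60.6 and 65.6 with Dex, 81.7 and 86.2 with LPS, and 50.2, 59.9 and 42.5 with LPS + Dex. The LPS libraries were the highest of all WT groups, and those with LPS + Dex overlapped vehicle. Libraries labelled AMPKa1-/- had 47.8, 39.9 and 45.6 FPKM with vehicle, 61.1, 63.2 and 68.6 with Dex, 56.1, 85.1 and 68.4 with LPS, and 38.6, 46.7 and 40.8 with LPS + Dex. A predicted gene on the opposite strand, Gm44876, overlaps its exons by 571 bases and reached at most 0.187 FPKM.

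Il4ra rose by 0.77 ± 0.15 with LPS in WT (adjusted p = 0.00011) and by 0.62 ± 0.14 in libraries labelled AMPKa1-/- (adjusted p = 0.00027). Dex added to LPS lowered it by 0.73 ± 0.15 (adjusted p = 0.00044) and 0.70 ± 0.14 (adjusted p = 0.00014). Dex alone raised it by 0.52 ± 0.14 in libraries labelled AMPKa1-/- (adjusted p = 0.0047) and by 0.36 ± 0.14 in WT, where the adjusted p of 0.0494 was just under the threshold. The WT call was lost without any of the 6 libraries compared (0.065 to 0.18) and without 19 of the 29 others (0.051 to 0.055). It was also lost with a pseudocount of 0.1 (0.0514), without the filter (0.0861), in centred libraries (0.124) and without moderation (0.0545). With DAMPs Il4ra was 47.4, 52.5 and 59.1 FPKM in WT and 46.7, 47.2 and 62.5 in libraries labelled AMPKa1-/-, and with DAMPs + Dex 60.6, 66.4 and 75.7 and 58.3, 57.5 and 66.5. None of these changes was called. The rise on adding Dex to DAMPs in WT, 0.34 ± 0.14, had an adjusted p of 0.068, which became 0.048 without WT DAMPs replicate 3 and 0.049 or 0.048 without LPS replicate 1 or 2 labelled AMPKa1-/-.

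Il7r (ENSMUSG00000003882, chr15:9505788-9530176, minus strand, 9 exons) fell with LPS and was partly restored with Dex. WT libraries had 55.6, 30.6 and 43.4 FPKM with vehicle, 30.0, 24.7 and 22.5 with Dex, 2.42 and 1.39 with LPS, and 19.4, 20.2 and 12.1 with LPS + Dex. Dex thus lay on opposite sides of its comparator in the 2 settings, with every Dex library below every vehicle library and every LPS + Dex library above every LPS library. Libraries labelled AMPKa1-/- had 27.1, 40.7 and 44.0 FPKM with vehicle, 9.28, 12.8 and 12.9 with Dex, 2.24, 2.36 and 5.16 with LPS, and 17.2, 21.7 and 14.4 with LPS + Dex, with the same 2 separations. In these libraries LPS + Dex stood above Dex alone.

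With LPS, Il7r fell by 3.91 ± 0.30 in WT (adjusted p = 8.4e-12) and fell by 3.21 ± 0.27 in libraries labelled AMPKa1-/- (adjusted p = 3.5e-11). Dex added to LPS raised it by 2.64 ± 0.30 (adjusted p = 4.6e-08) and by 2.19 ± 0.27 (adjusted p = 1.3e-07), to 39.8% and 47.7% of the vehicle means. Dex alone lowered it by 1.58 ± 0.27 in libraries labelled AMPKa1-/- (adjusted p = 4.4e-05) and by 0.70 ± 0.27 in WT (adjusted p = 0.048). The WT call was lost without WT vehicle replicate 1 or 3 or WT Dex replicate 2 or 3 (adjusted p 0.10 to 0.21) and without 11 of the 29 libraries of other groups (0.0503 to 0.0543). It was also lost with a pseudocount of 0.1 (0.0699), without the filter (0.0992), with TPM rescaling (0.123) and without moderation (0.0659). With DAMPs the level was 45.3, 32.5 and 28.2 FPKM in WT and 23.5, 36.9 and 26.4 in libraries labelled AMPKa1-/-, and with DAMPs + Dex 36.4, 20.8 and 32.1 and 24.6, 28.0 and 24.1. No change with DAMPs or on adding Dex to DAMPs was called. Of the T cell markers only Cd4, the most abundant, had a mean of at least 1 FPKM. The summed level of the 8 T cell genes was 15.9 to 18.3 FPKM with vehicle, 2.02 to 2.31 with LPS and 1.61 to 4.58 with LPS + Dex in WT. The last 2 of these overlapped. In libraries labelled AMPKa1-/- the sum was 7.06 to 11.8, 1.45 to 1.52 and 0.663 to 1.40 FPKM in the same order. There it was lower with LPS + Dex than with LPS, without overlap. With Dex alone the sum was 16.2, 8.68 and 7.14 FPKM in WT, and 7.83, 4.46 and 8.15 in libraries labelled AMPKa1-/-, mostly below vehicle but overlapping it in both genotypes. The part of these markers in the Il7r results was not tested.

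**Figure D2:**
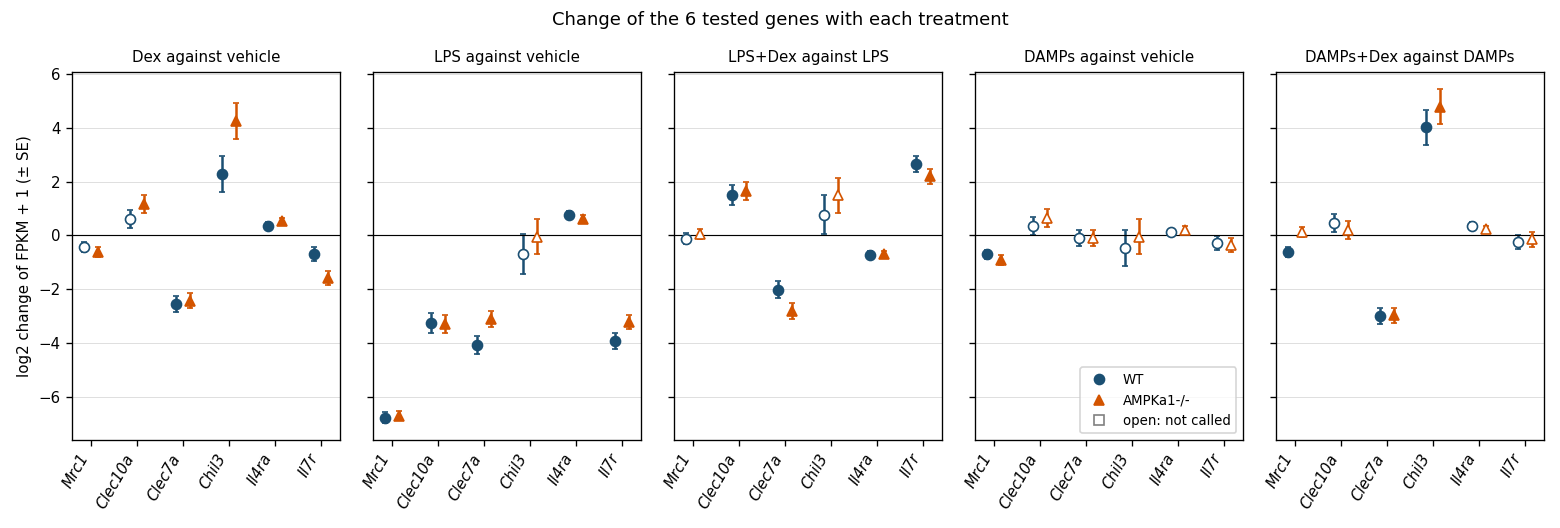
Change of the 6 tested genes in each treatment comparison, as the log2 change of FPKM + 1 on the vertical axis with bars of 1 SE. Circles are WT and triangles are libraries labelled AMPKa1-/-, filled where limma called the change at an adjusted p under 0.05. With LPS, Mrc1 lies lowest at -6.76 and -6.68, and on adding Dex to LPS, Il7r lies highest at 2.64 and 2.19 and Clec7a lowest at -2.01 and -2.80.

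Counted over the 6 tested members, Dex against vehicle raised 2 and lowered 2 in WT, where the shares among the 11354 genes tested were 15.9% higher and 14.9% lower. In libraries labelled AMPKa1-/- it raised 3 and lowered 3, against 11.9% and 16% of all genes, with 42.8% of the called genes higher, 53.0% after quantile normalization and 35.1% with TPM rescaling. LPS against vehicle raised Il4ra and lowered 4 members in both genotypes, against 19.9% higher and 35.8% lower among all genes in WT and 20.2% and 44.1% in libraries labelled AMPKa1-/-. The balance of higher and lower genes depended on the scaling. With Dex in WT, 1810 of the called genes were higher and 1696 lower. In centred libraries these counts were 1648 and 2011, and with TPM rescaling 1994 and 1389. With LPS, 35.7% of the called genes were higher in WT and 31.4% in libraries labelled AMPKa1-/-, against 46.3% and 49.0% in centred libraries and 29.4% and 24.9% with TPM rescaling. The median change of the 6 with LPS was -3.58 in WT and -3.15 in libraries labelled AMPKa1-/-, beside -0.19 and -0.30 over all genes. Adding Dex to LPS raised Clec10a and Il7r and lowered Il4ra and Clec7a in both genotypes. There, 16.6% of the genes tested were higher and 17.5% lower in WT, and 19.3% and 18.4% in libraries labelled AMPKa1-/-. Of the genes called there, 48.7% and 51.2% were higher in the 2 genotypes, against 35.8% and 37.6% with TPM rescaling. After quantile normalization these shares were 57.8% and 56.5%, and in centred libraries 56.2% and 53.0%. The gene Saa3 made up 7.12% to 7.20% of the FPKM sum with LPS and 16.0% to 24.0% with LPS + Dex in WT. In libraries labelled AMPKa1-/- it made up 3.74% to 7.58% and 16.5% to 21.5%. The part of Saa3 in the changes on adding Dex to LPS was not tested. DAMPs against vehicle lowered 1 member in both genotypes, where 1.22% of genes were called higher and 0.793% lower in WT and 1.89% and 2.24% in libraries labelled AMPKa1-/-. These 228 genes in WT became 26 without WT DAMPs replicate 3, 81 and 114 without WT vehicle replicates 3 and 1, and 372 without WT DAMPs replicate 2, and the 469 in libraries labelled AMPKa1-/- became 267 to 311 without vehicle replicate 2 or 3 or DAMPs replicate 1 or 3. Adding Dex to DAMPs raised Chil3 and lowered Mrc1 and Clec7a in WT (11.7% and 12.6% of all genes), and raised Chil3 and lowered Clec7a in libraries labelled AMPKa1-/- (13.1% and 12.2%). In several of these comparisons the libraries also separated by the sums of the eosinophil, B cell, mast cell and basophil, or NK and innate lymphoid cell markers, lists without a gene at a mean of 1 FPKM, and their part was not tested. The fibroblast sum separated too, beyond the comparisons given with Mrc1. It was 12.3 to 14.4 FPKM with LPS and 3.30 to 11.6 with LPS + Dex in WT. In libraries labelled AMPKa1-/- it was 1.71 to 3.16 FPKM with vehicle and 3.17 to 4.69 with Dex. Its part was not tested. Comparisons with vehicle share their vehicle libraries, and comparisons of the same LPS or DAMPs libraries share those.

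Whether the genotypes responded differently was tested as the difference between the 2 responses. None of the 6 members was called in any of the 5 treatment comparisons, and 0% of the 11354 genes were called for Dex, 0% for LPS, 0% for Dex added to LPS, 0% for DAMPs and 0% for Dex added to DAMPs. Before adjustment, limma gave p under 0.05 for 2441, 514, 311, 66 and 234 genes in that order, among them 2, 1, 0, 0 and 1 of the members. The intervals were wide. The rise of Chil3 with Dex was larger by 1.96 in libraries labelled AMPKa1-/- (95% interval 0.06 to 3.87, adjusted p = 0.22), the fall of Il7r with Dex was larger by 0.89 (difference -0.89, -1.67 to -0.11, adjusted p = 0.20), the fall of Clec7a with LPS was smaller by 0.97 (0.07 to 1.86, adjusted p = 0.947), and for Mrc1 the effect of adding Dex to DAMPs differed by 0.74 (0.21 to 1.26, adjusted p near 1). For Il4ra the intervals were narrowest, the difference with LPS being -0.14 (-0.57 to 0.28). The Chil3 difference with Dex ran from 1.13 to 2.60 with a library left out and from 1.24 to 2.14 under the alternatives.

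The levels themselves were also compared between genotypes at each treatment. With Dex, where 26.5% of all genes were called, 3 of the 6 members were called. The balance over all genes depended on the scaling here too. Of the genes called, 1245 were higher and 1763 lower in the libraries labelled AMPKa1-/-. In centred libraries these counts were 1976 and 1365, and with TPM rescaling 676 and 2539. Chil3 was higher in the libraries labelled AMPKa1-/- by 2.37 ± 0.65 (adjusted p = 0.015), Mrc1 lower by 0.80 ± 0.18 (-0.80, adjusted p = 0.0054) and Il7r lower by 1.08 ± 0.27 (-1.08, adjusted p = 0.0090), and for each of the 3 the libraries of the genotypes did not overlap. Leaving out WT Dex replicate 2 reduced the genes called from 3008 to 304, and leaving out Dex replicate 2 labelled AMPKa1-/- to 308, and without WT Dex replicate 1 it was 1662. The Chil3 call was lost without WT Dex replicate 2 or without Dex replicate 1 or 2 labelled AMPKa1-/- (adjusted p 0.055 to 0.084), and with a pseudocount of 0.1 (0.0734). With DAMPs, where 0.731% of genes were called, Mrc1 was the only member called, lower in the libraries labelled AMPKa1-/- (-0.81 ± 0.18, adjusted p = 0.026). The 83 genes behind this share became 25 to 55 without any 1 of the 6 DAMPs libraries. The Mrc1 call was lost without DAMPs replicate 1 or 2 labelled AMPKa1-/- or WT DAMPs replicate 1 or 2 (0.11 to 0.21), and with a pseudocount of 0.1 (0.390), TPM rescaling (0.0642) or only the groups compared (0.330). Mrc1 was also lower, without a call, with vehicle (-0.61, 95% interval -0.98 to -0.24) and with LPS (-0.54, -0.95 to -0.12), in both without overlap. With LPS + Dex its estimate was -0.36 (-0.73 to 0.01), and with DAMPs + Dex -0.07 (-0.44 to 0.30). Marker sums also differed between these DAMPs libraries without overlap. The neutrophil sum was 2.36 to 7.23 FPKM in WT and 14.9 to 43.3 in libraries labelled AMPKa1-/-, the T cell sum 22.9 to 35.4 and 16.4 to 20.9, and the sum of 7 B cell markers, none with a mean of at least 1 FPKM, Cd79b the most abundant and Cd79a, Ebf1, Ms4a1, Pax5 and Vpreb3 under 1 in all libraries, 2.04 to 2.93 and 1.49 to 1.81. The macrophage sum was 26180 to 28173 FPKM in WT and 28238 to 39092 in libraries labelled AMPKa1-/-. For the dendritic cell sum the values were 0.608 to 1.06 and 1.37 to 1.59. The part of all these markers in the Mrc1 difference was not tested.

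No member was called between genotypes with vehicle (0.432% of all genes called), LPS (0.766%), LPS + Dex (0.669%) or DAMPs + Dex (1.06%). Single libraries moved these counts of genes by over 1.5 times. With vehicle the 49 genes became 28 to 32 without replicate 1 or 2 labelled AMPKa1-/- or WT replicate 1 or 3. With LPS the 87 became 9 without WT replicate 3 and 22 without replicate 1 labelled AMPKa1-/-. With LPS + Dex the 76 became 36 to 48 without replicate 1 or 3 labelled AMPKa1-/- or WT replicate 1, and with DAMPs + Dex the 120 became 49 to 73 without replicate 1 or 2 labelled AMPKa1-/- or WT replicate 2 or 3. Clec7a was not called in any treatment, and its estimates with vehicle, Dex, LPS + Dex, DAMPs and DAMPs + Dex were -0.84, -0.72, -0.67, -0.85 and -0.81, with 95% intervals below 0 in each, whereas with LPS it was 0.12 (-0.55 to 0.79). At a pseudocount of 0.1 the Clec7a estimate with LPS + Dex was -1.44 and was called (adjusted p = 0.048), as was that of Mrc1 with LPS (-1.47 in place of -0.54, adjusted p = 0.026). With Dex the adjusted p of Clec7a was 0.061, against 0.039 with TPM rescaling, 0.041 with the replicate block and 0.020 with only the groups compared, and it fell to 0.048 without WT Dex replicate 3, to 0.039 without WT DAMPs replicate 2 and to 0.048 without WT vehicle replicate 2. With DAMPs its estimate was -1.24 without WT DAMPs replicate 2 (adjusted p = 0.039). Chil3 was estimated higher in libraries labelled AMPKa1-/- in each of the 6 treatments, by 0.40 with vehicle to 2.37 with Dex, although with vehicle the estimate was -0.09 without vehicle replicate 1 labelled AMPKa1-/- and -0.24 without WT vehicle replicate 2. The 6 summed fibroblast markers, of which 4 had a mean of at least 1 FPKM, Col1a2 was the most abundant and Pdgfra was under 1 FPKM in all libraries, were 12.3, 15.4 and 25.0 FPKM in WT Dex libraries and 4.14, 4.69 and 3.17 in those labelled AMPKa1-/-. The macrophage sum with Dex was 19397 to 22948 FPKM in WT and 29627 to 36470 in libraries labelled AMPKa1-/-. The part of these markers in the differences with Dex was not tested.

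**Figure D3:**
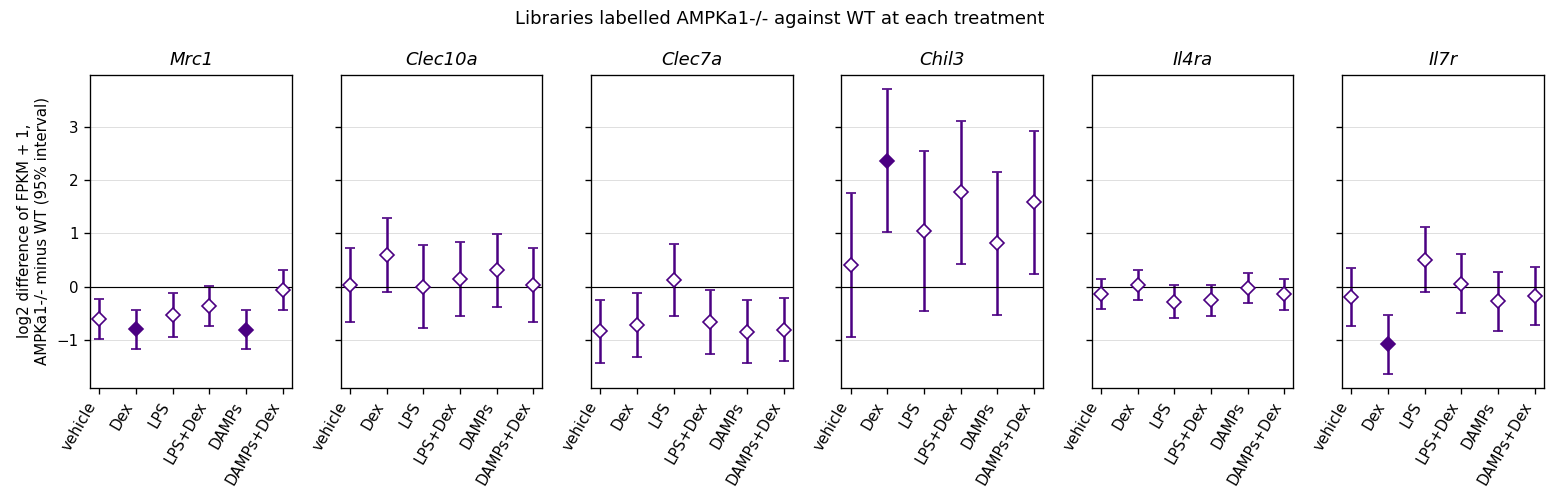
Level in libraries labelled AMPKa1-/- minus the level in WT libraries for the 6 tested genes, as the log2 difference of FPKM + 1 on the vertical axis, with 95% intervals, at each of the 6 treatments. Filled symbols were called by limma at an adjusted p under 0.05. These are Mrc1 with Dex and with DAMPs, Chil3 with Dex and Il7r with Dex.

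The other genes of the pathway were counted by lists that leave out the 8 members. Of 5 genes for IL-4, IL-13 and their other receptor chains, 3 were tested. Il2rg, the common gamma chain, fell by 1.31 with Dex (adjusted p = 2.5e-05) and rose by 0.86 with LPS (adjusted p = 0.0029) in WT. Il4 itself had a mean of 10.7 FPKM in WT vehicle libraries and 1.04 in WT LPS libraries (-2.54, adjusted p = 5.2e-12). Of 6 mast cell and basophil markers none had a mean of at least 1 FPKM, Cpa3 being the most abundant (at most 0.878) and Cma1, Fcer1a and Tpsb2 being at 0 in all libraries. Their sum was 0.379 to 0.644 FPKM with vehicle and 0 to 0.0416 with LPS in WT, and its part in the Il4 result was not tested. Of 7 tested genes of IL-4 receptor signalling, none rose and Ptpn6, a phosphatase, fell with Dex in WT (-0.99, adjusted p = 1.5e-06), beside 15.9% higher and 14.9% lower of all genes. With LPS, Socs1, a feedback inhibitor of JAK kinases, rose from a mean of 0.193 to 142 FPKM (6.90, adjusted p = 1.4e-18) and Stat6 fell from 235 to 159 (-0.56, adjusted p = 0.00020). With LPS + Dex, Socs1 was lower than with LPS in WT (-2.67, adjusted p = 2.2e-09) and Stat6 had a mean of 151.

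The transcription factors of alternative activation changed in both directions. Of 10 tested, Dex raised 4 and lowered 5 in WT and raised 3 and lowered 5 in libraries labelled AMPKa1-/-, with a median change of -0.37 and -0.79 beside 0.05 and -0.05 over all genes, of which 15.9% and 14.9% were called in WT and 11.9% and 16% in libraries labelled AMPKa1-/-. Klf4, a factor induced by IL-4, rose with Dex by 3.20 in WT (from a mean of 6.37 to 67.7 FPKM, adjusted p = 3.7e-12) and by 2.16 in libraries labelled AMPKa1-/-. Egr2, another such factor, fell by 4.25 in WT (-4.25, from 42.1 to 1.12 FPKM, adjusted p = 2.0e-11) and by 4.41 in libraries labelled AMPKa1-/- (-4.41). LPS lowered 5 of the 10 in both genotypes (35.8% and 44.1% of all genes), Pparg the most (-4.48 in WT, from 36.4 to 0.664 FPKM, adjusted p = 4.05e-15). Like Mrc1, Pparg stayed at 0.736 FPKM with LPS + Dex in WT (0.06, adjusted p = 0.885), whereas Klf4 rose from 1.31 to 14.7 (2.75, adjusted p = 3.1e-10). DAMPs lowered Egr2 and Myc in both genotypes, beside 0.793% of all genes in WT and 2.24% in libraries labelled AMPKa1-/-.

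Other genes known to be induced by IL-4 also changed in both directions. Of 21 tested, Dex raised 2 and lowered 8 in WT, beside 15.9% and 14.9% of all genes, with a median change of -0.26 beside 0.05. Rnase2a was listed at 0 in all vehicle libraries and had a mean of 8.45 FPKM with Dex in WT and 11.8 in libraries labelled AMPKa1-/-, and Mmp12, a macrophage elastase, fell from 729 to 63.1 FPKM in WT (-3.30, adjusted p = 2.7e-06). LPS raised 8 and lowered 9 of the 21 in WT, beside 19.9% and 35.8% of all genes. The chemokine genes Ccl22 and Ccl17 went from means of 0.221 and 0.288 FPKM to 1067 and 296 in WT (9.78 and 7.86), while Trem2 fell from 818 to 9.52 (-6.28, adjusted p = 2.4e-19). Adding Dex to LPS raised 4 and lowered 10 of them in both genotypes, beside 16.6% and 17.5% of all genes in WT and 19.3% and 18.4% in libraries labelled AMPKa1-/-, with Ccl22 falling to a mean of 2.38 FPKM in WT (-8.54, adjusted p = 4.7e-15). With DAMPs none of the 21 was called in either genotype, where only 2.01% of all genes in WT and 4.13% in libraries labelled AMPKa1-/- were.

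Surface genes of the M2 or glucocorticoid type had 11 tested members, of which Dex raised 4 and lowered 3 in both genotypes, beside 15.9% and 14.9% of all genes in WT and 11.9% and 16% in libraries labelled AMPKa1-/-. Cd163, a haemoglobin scavenger receptor, rose from 4.42 to 26.7 FPKM with Dex in WT (2.36, adjusted p = 1.2e-06), and Mertk, a receptor for apoptotic cells, from 37.8 to 204 (2.40, adjusted p = 1.35e-10). LPS lowered 9 of the 11 in WT and 8 in libraries labelled AMPKa1-/-, beside 35.8% and 44.1% of all genes, with a median change of -1.54 and -1.45. Adding Dex to LPS raised 4 in both, beside 16.6% and 19.3% of all genes. F13a1, the coagulation factor XIII A chain, fell from 106 to 2.49 FPKM with LPS in WT and stood at 137 with LPS + Dex (5.29, adjusted p = 1.1e-14). Marco, a scavenger receptor, rose with DAMPs from 22.7 to 163 FPKM in WT (2.79, adjusted p = 3.2e-06).

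In the lectin family, 13 genes were tested besides the members. LPS raised 3 and lowered 7 in WT, beside 19.9% and 35.8% of all genes, and adding Dex to LPS raised 5 and lowered 4, beside 16.6% and 17.5%. Clec4n, which encodes Dectin-2, fell with LPS in WT (-1.67, adjusted p = 0.0028) and, like Clec7a, fell further on adding Dex (from 30.2 to 3.96 FPKM in WT, -2.64, adjusted p = 3.6e-05), and Clec4b1, like Clec10a, fell with LPS (-3.65, adjusted p = 1.1e-11) and rose on adding Dex (1.69, adjusted p = 2.3e-05). Clec4e, the Mincle gene, rose from 21.9 to 960 FPKM with LPS (5.38, adjusted p = 8.6e-13). Among the chitinase-like and resistin-like genes only Chil1 was tested of 9. It went from 1.00 to 237 FPKM with LPS in WT (6.91, adjusted p = 8.6e-15) and was not called with Dex (-0.66, adjusted p = 0.14), unlike Chil3.

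Downstream of Dectin-1, all 11 signalling genes listed were tested, and LPS raised 6 and lowered 3 in both genotypes, beside 19.9% and 35.8% of all genes in WT and 20.2% and 44.1% in libraries labelled AMPKa1-/-. Malt1 rose from 8.94 to 192 FPKM with LPS in WT (4.39, adjusted p = 1.65e-11) and fell to 28.6 with LPS + Dex (-2.79, adjusted p = 2.3e-07), while Card9, its partner, rose on adding Dex (from 31.8 to 74.2 FPKM, 1.20, adjusted p = 7.8e-06). Of 8 tested genes of the IL-7 and TSLP pathway, LPS raised 4 and lowered none in WT (19.9% and 35.8% of all genes), and adding Dex to LPS raised none and lowered 4 (16.6% and 17.5%). Cish, a target of STAT5, was at a mean of 0.0314 FPKM with vehicle, 21.8 with LPS and 0.0840 with LPS + Dex in WT, so it was high where Il7r was low.

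**Figure D4:**
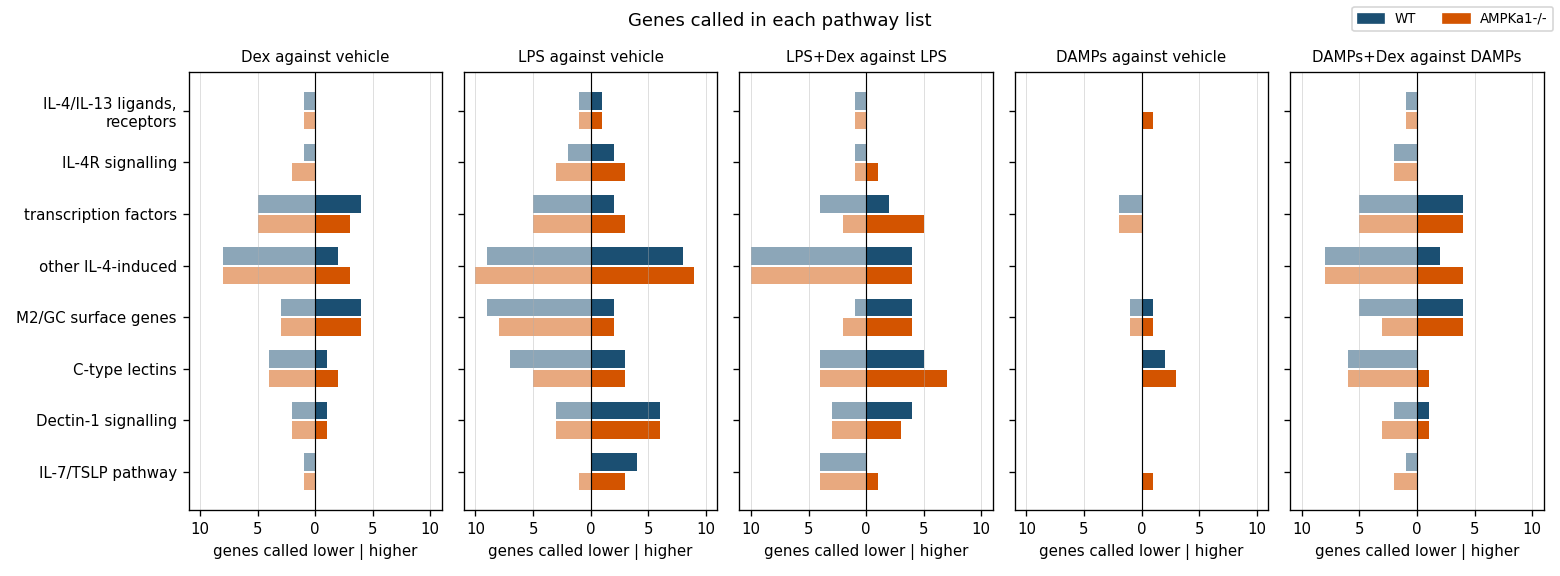
Number of genes called lower (pale, to the left of 0) and higher (dark, to the right of 0) in each of 8 lists of pathway genes, for each treatment comparison. Blue bars are WT and orange bars are libraries labelled AMPKa1-/-. The list of other IL-4-induced genes has the longest bars, with 10 lower on adding Dex to LPS in both genotypes and with LPS in libraries labelled AMPKa1-/-.

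Over the means of the 12 groups, on the log2(FPKM + 1) scale, Mrc1 was most like Ago4 (Pearson r = 0.997), Cd200r1 (0.996) and St6gal1 (0.995) among all genes tested. Clec10a was most like Rnf220 (0.994), Pheta1 (0.992) and Pink1 (0.990), and Clec7a most like Hmga1 (0.986), Hpgds (0.985) and Hmga1b (0.979), of which Hmga1 and Hmga1b are near-identical copies. Il7r was most like St6galnac6 (0.971), Gatc (0.968) and Rgs2 (0.965), Chil3 most like Prkab1 (0.955), Jaml (0.948) and Rab33a (0.947), and Il4ra most like Tdrd7 (0.931), Nt5c3 (0.928) and Cnbd2 (0.919). Between members the values ran from 0.898 (Clec10a with Mrc1) to -0.681 (Il7r with Il4ra), with Clec7a and Mrc1 at 0.797 and Clec7a and Chil3 at -0.254. The 12 means share their treatments, so these values describe the pattern over groups only.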

How the data were processed

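The authors deposited FPKM values for 47069 Ensembl gene identifiers in each library, 46488 of which have a symbol in GENCODE M21 (GRCm38). The methods name the NovaSeq platform and a sequencing provider. The submitters' processing notes name Bowtie2 2.2.3, TopHat2 2.0.12, HTSeq 0.6.1, DESeq2 and the builds GRCm38 and mm10, with no role or order, and whether counting used strand is not given in the sources used here. FPKM are not counts, so no count model was fitted. Library totals were estimated from the step that 1 fragment makes in weakly expressed genes, and 55.3% to 63.9% of values under 10 fragments were whole within 0.001.

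Genes with a mean of at least 1 FPKM over the 35 libraries (11354 genes) were tested with limma 3.58.1 (R 4.3.3) on log2(FPKM + 1), 2-sided, in a single fit of 12 groups (23 residual degrees of freedom) with trended empirical Bayes and Benjamini-Hochberg adjustment at 0.05. The study's methods name no program for gene tests. The p-values measure the spread between these cultures. Comparisons were each treatment against its comparator within a genotype, the difference of these responses between genotypes, and the genotypes at each treatment, 21 in all. The fit was tested on simulated data. Tables and figures used Python 3.11.15, pandas 2.3.3, numpy 2.4.6, scipy 1.17.1 and matplotlib 3.10.9. Replicates correlated at 0.967 to 0.993 and shared no run of identical values.

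Replicate numbers were checked by correlating the deviations of same-numbered libraries from their group means. All 3 correlations were over 0.1 for Dex against vehicle, LPS against vehicle and LPS + Dex against LPS labelled AMPKa1-/- and for the genotypes with LPS + Dex. No source says what a number marks.

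The members and gene lists were chosen with earlier results of these data known. Besides the members, genes named are checks of genotype and treatment, up to 4 called genes with the largest change in each list and comparison, the 3 genes most like each member, and the most abundant and absent cell type markers. Of the marker lists, the B cell, NK and innate lymphoid, and eosinophil lists had no gene with a mean of at least 1 FPKM, and of the dendritic cell list only Ccr7 did. Alternatives were other pseudocounts, filters, scalings, groups, moderation and blocks, and leaving out each library.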

Additional observations from a re-analysis of the deposited data

How the results depend on the processing

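Of 126 member results (6 tested genes in 21 comparisons), 39 were called, and 30 of these were called under every alternative and with any library left out. None reversed. Of the other calls, 8 were lost under at least 1 alternative and 8 without at least 1 library, with the values given in the report, and the cause was not tested. The number of members called for Dex in WT was 2 in place of 4 with a pseudocount of 0.1 and without moderation, 3 without the filter (Il4ra and Il7r were lost, and Mgl2, then tested, was called), and 2 to 5 with a library left out. For DAMPs in WT it was 0 in place of 1 with a pseudocount of 0.1, without the filter, with TPM rescaling, without moderation and with only the groups compared, and 0 to 1 with a library left out. For DAMPs labelled AMPKa1-/- it was 0 in place of 1 with a pseudocount of 0.1. Between genotypes with DAMPs it was 0 in place of 1 with a pseudocount of 0.1, TPM rescaling and only the groups compared, and 0 to 1 with a library left out. Between genotypes it was 1 in place of 0 with vehicle in centred libraries (Mrc1), and 1 in place of 0 with LPS (Mrc1) and with LPS + Dex (Clec7a) at a pseudocount of 0.1. Calls gained elsewhere were Mrc1 with Dex in WT (centred libraries, only the groups compared), Il4ra on adding Dex to DAMPs in WT (quantile normalization) and Clec7a between genotypes with Dex (TPM rescaling, only the groups compared).

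The replicate number as a block changed 2 member calls, both gained, namely Chil3 on adding Dex to LPS labelled AMPKa1-/- (adjusted p 0.0124 against 0.0727) and Clec7a between genotypes with Dex (0.041 against 0.0614), where the numbers did not pair the libraries throughout. Genes called for genotype differences in response, 0 in the fits reported, were at most 118 without the filter (LPS) and 5 with the block (LPS), and with a library left out at most 3 (Dex, without WT LPS + Dex replicate 3), 13 (LPS, without WT LPS replicate 2) and 2 (Dex added to LPS, without WT LPS replicate 2 or LPS replicate 3 labelled AMPKa1-/-). Among all genes, the calls for Dex added to LPS in WT were 2065 in place of 3871, and for DAMPs in WT 1 in place of 228, with only the groups compared. Between genotypes with vehicle, 49 genes became 92 without the filter, 27 at a mean of at least 5, 83 with the block and 19 with only the groups compared. With LPS 87 became 450 without the filter and 3 with the groups compared, with LPS + Dex 76 became 146 and 7, with DAMPs 83 became 41 at a pseudocount of 0.1, 54 at a mean of at least 5 and 11 with the groups compared, and with DAMPs + Dex 120 became 35 with the groups compared. Depth limits Retnla and Mgl2, and the low Mrc1 values with LPS rest on as few as 17.1 fragments.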

Other observations

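Clec7a was highest in replicate 1 in 5 of the 5 WT groups of 3 libraries, and Il7r in 4 of these 5. Chil3 was highest in replicate 1 in 5 of the 6 groups labelled AMPKa1-/-. What a replicate number marks is not given, and no test was made of these counts.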
